A study of Mus musculus and Rattus norvegicus with 21 samples.

Results

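Tri-methylation of histone H3 at lysine 4 (H3K4me3) was compared with tri-methylation at lysine 27 (H3K27me3) in thyroid glands of Glis3 knockout mice fed a low iodide diet (Glis3KO-LID), using 1 chromatin immunoprecipitation sequencing (ChIP-seq) peak list for each mark. These 2 libraries were among 21 samples of the series, which held 13 peak lists of a single library, 8 of them of the histone marks, and 8 input libraries. Per the labels, both came from thyroids of mice aged 1 month, of strain C57BL/6 and genotype B6.Glis3<tm2(mCherry)Amj>, kept on Low Iodine Diet TD.95125 from Harlan, and were made with the Abcam antibodies ab8580 (H3K4me3) and ab6002 (H3K27me3). The 3 groups set beside it were wild-type mice on that diet (WT-LID) and Glis3KO and wild-type mice on the normal diet NIH-31 (Glis3KO-ND and WT-ND), of the same labelled age and strain. Glis3 encodes the Krüppel-like zinc finger transcription factor (TF) GLIS3, and a lack of iodide brings up thyroid-stimulating hormone (TSH), the pituitary signal for thyroid hormone (TH) synthesis. Per the study's methods, these mice had been on their diets for under 1 week, and how many glands went into a library was not found in the sources used here. Peak lists of the TFs NKX2.1 and PAX8 were also used, from thyroids of low iodide mice labelled 1 month old. The methods describe those mice as older and of Glis3-EGFP genotype. The members of the comparison were all 26242 windows reaching 1 kb either side of a start site of 21000 protein-coding genes, and each window was sorted by whether a peak of both marks, of 1 mark or of neither touched it by at least 1 bp.

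H3K4me3 is deposited at the start of genes by trithorax-type methyltransferase complexes and marks promoters that are active or open for transcription, most of them in CpG islands. H3K27me3 is deposited by Polycomb repressive complex PRC2 and covers silent genes, above all those of developmental regulators, often as broad domains. Promoters that carry both are called bivalent when the marks sit on the same nucleosomes. ChIP-seq of a whole gland cannot show that, since the marks may come from different alleles or from follicular, stromal, endothelial and other cells, and fewer marked cells cannot be told apart from less mark per cell.

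The H3K27me3 list of Glis3KO-LID stood apart from the other lists. It held 18040 peaks covering 55.11 Mb, against 2631 in WT-LID (7.50 Mb), 4116 in Glis3KO-ND (13.26 Mb) and 3050 in WT-ND (7.47 Mb). The H3K4me3 list held 15692 peaks covering 22.56 Mb, somewhat fewer than the 16590 to 17044 peaks (25.44 to 26.73 Mb) of the other groups. With 1 library per mark and group, no score in the lists and an unknown number of reads behind them, no test could be made, and library quality, depth and genotype cannot be told apart. The main results that rest on the long list are therefore given also with its 2631 widest peaks, as many as in WT-LID, of which the narrowest spans 4869 bp. Width stands in there for a score that the lists lack. All intervals are 95% Wilson intervals and cover the counting of windows, genes or peaks only. H3K4me3 peaks touched the start windows of the follicular cell markers Tg, Tshr, Slc5a5, Pax8, Nkx2-1, Foxe1 and Hhex in Glis3KO-LID. This is a weak check of the tissue, since H3K4me3 touched 58.5% of all start windows there. In WT-LID and WT-ND no H3K4me3 peak touched the Tg window. Glis3 itself kept an H3K4me3 peak over 1356 bp of its window in Glis3KO-LID and over 1311, 1548 and 1337 bp in WT-LID, Glis3KO-ND and WT-ND, and a mark at the promoter does not check the knockout allele.

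The 300 bases upstream of 7 start sites show the range of promoters behind the classes, from a dense CpG island to a promoter with a single CpG. They were taken from the RefSeq FASTA of GRCm38 (mm10), run 5′ to 3′ on the strand of the gene, touch no annotated exon and have every CG dinucleotide in capitals. The genes were picked among the named ones after their values were seen. Slc5a5 (sodium/iodide symporter, chr8:70892758-70893057, minus strand, 23 CG), Slc26a4 (pendrin, chr12:31559985-31560284, minus strand, 4 CG) and Sall1 (a zinc finger TF, chr8:89042863-89043162, minus strand, 31 CG) carried both marks. Tg (thyroglobulin, chr15:66670470-66670769, plus strand, 1 CG) and Pax8 (thyroid TF, chr2:24475600-24475899, minus strand, 7 CG) carried H3K4me3 only. Hoxd10 (homeobox TF, chr2:74691591-74691890, plus strand, 24 CG) and Adm2 (adrenomedullin 2, chr15:89322420-89322719, plus strand, 5 CG) carried H3K27me3 only.
Slc5a5: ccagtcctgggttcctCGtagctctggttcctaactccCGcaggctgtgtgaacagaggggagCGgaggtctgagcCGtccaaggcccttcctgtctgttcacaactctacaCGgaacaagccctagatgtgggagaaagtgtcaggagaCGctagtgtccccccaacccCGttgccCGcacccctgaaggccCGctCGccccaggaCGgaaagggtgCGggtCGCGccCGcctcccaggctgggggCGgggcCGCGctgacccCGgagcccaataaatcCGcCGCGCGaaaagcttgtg
Slc26a4: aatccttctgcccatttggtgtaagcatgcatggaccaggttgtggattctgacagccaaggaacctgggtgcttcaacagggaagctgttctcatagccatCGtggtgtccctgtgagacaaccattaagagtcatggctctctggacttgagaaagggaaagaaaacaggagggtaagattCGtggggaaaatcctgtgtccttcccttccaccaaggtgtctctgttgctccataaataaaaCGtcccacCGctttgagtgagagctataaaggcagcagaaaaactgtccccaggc
Sall1: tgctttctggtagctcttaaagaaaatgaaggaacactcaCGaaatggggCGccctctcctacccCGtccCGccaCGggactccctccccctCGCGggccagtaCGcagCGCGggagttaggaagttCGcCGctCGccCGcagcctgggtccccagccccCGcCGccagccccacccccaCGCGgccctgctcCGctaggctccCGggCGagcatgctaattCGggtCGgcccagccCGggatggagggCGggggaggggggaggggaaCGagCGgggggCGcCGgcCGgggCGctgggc
Tg: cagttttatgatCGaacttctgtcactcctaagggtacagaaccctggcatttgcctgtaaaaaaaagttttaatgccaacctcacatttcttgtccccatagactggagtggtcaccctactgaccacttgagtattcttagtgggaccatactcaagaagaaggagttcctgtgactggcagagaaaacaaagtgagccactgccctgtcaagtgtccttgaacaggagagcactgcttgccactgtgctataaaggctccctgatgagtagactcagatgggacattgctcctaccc
Pax8: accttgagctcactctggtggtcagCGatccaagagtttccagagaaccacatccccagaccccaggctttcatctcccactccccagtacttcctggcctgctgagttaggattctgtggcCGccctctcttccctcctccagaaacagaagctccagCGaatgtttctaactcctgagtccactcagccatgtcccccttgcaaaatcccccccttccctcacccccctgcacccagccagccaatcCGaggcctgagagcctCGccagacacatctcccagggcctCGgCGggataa
Hoxd10: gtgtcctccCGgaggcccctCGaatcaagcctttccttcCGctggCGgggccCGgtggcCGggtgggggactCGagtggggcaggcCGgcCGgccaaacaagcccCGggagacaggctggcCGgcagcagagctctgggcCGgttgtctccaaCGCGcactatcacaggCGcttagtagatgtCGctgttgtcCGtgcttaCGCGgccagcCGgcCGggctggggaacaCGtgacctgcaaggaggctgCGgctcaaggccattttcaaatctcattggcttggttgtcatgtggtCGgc
Adm2: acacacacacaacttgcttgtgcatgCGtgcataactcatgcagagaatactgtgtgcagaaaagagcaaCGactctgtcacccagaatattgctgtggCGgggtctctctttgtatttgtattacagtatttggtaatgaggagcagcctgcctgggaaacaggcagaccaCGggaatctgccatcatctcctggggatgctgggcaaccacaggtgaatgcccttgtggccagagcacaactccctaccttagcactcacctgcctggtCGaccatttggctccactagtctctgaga
At least 1 CG was present in the same 300 bases of 95.1% of all 26242 start sites. The median was 18 CG for windows with both marks, 19 for H3K4me3 only, 7 for H3K27me3 only and 3 for neither.

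Nearly every second start window in the Glis3KO-LID thyroid carried H3K4me3 alone, and windows with both marks were more frequent than windows with H3K27me3 alone. Both marks touched 2619 of 26242 windows (9.98%, 9.62 to 10.3%), H3K4me3 only 12726 (48.5%), H3K27me3 only 1808 (6.89%) and neither 9089 (34.6%). Counted by gene, 2208 of 21000 (10.5%) had both marks in the same window, 10366 (49.4%) had H3K4me3 only, 1422 (6.77%) H3K27me3 only and 6967 (33.2%) neither, and 37 (0.176%) had the marks at different start sites. In the other groups, both marks were at 5.17% of genes and 4.96% of windows in WT-LID, 6.45 and 6.03% in Glis3KO-ND and 4.93 and 4.63% in WT-ND. H3K4me3 only was found at 57.8% of genes and 56.6% of windows in WT-LID, 55.9 and 55.0% in Glis3KO-ND and 57.2 and 56.1% in WT-ND. H3K27me3 only was found at 1.29 and 1.35% in WT-LID, 2.12 and 2.22% in Glis3KO-ND and 1.42 and 1.49% in WT-ND. Neither mark was at 35.7 and 37.1%, 35.4 and 36.8%, and 36.4 and 37.7%, in the same order of groups, and the marks were at different starts in 0.0429, 0.110 and 0.0905% of genes. The share of windows with both marks was the highest of the 4 groups in Glis3KO-LID with its whole H3K27me3 list. With the 2631 widest H3K27me3 peaks it held 1237 such windows, fewer than WT-LID (1302) and Glis3KO-ND (1582) and more than WT-ND (1215). Windows of neighbouring starts overlap, and merging them left 2233 separate loci with both marks. Among 572 genes with several start sites and both marks at one or more of them, all starts carried both in 239, another start carried H3K4me3 only in 104 and another carried H3K27me3 only in 108.

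H3K27me3 windows held H3K4me3 about as often as all other windows did in Glis3KO-LID. The share was 59.2% of 4427 windows with H3K27me3 (57.7 to 60.6%) against 58.3% of 21815 windows without it (57.7 to 59.0%). In the shorter H3K27me3 lists it was higher than in windows without H3K27me3, with 78.7 against 60.4% in WT-LID, 73.1 against 59.9% in Glis3KO-ND and 75.7 against 59.8% in WT-ND. With the widest H3K27me3 peaks of Glis3KO-LID it was 63.7%. From the side of H3K4me3, 17.1% of 15345 windows also carried H3K27me3 in Glis3KO-LID, compared with 8.06% in WT-LID, 9.88% in Glis3KO-ND and 7.62% in WT-ND.

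Within windows of both marks, H3K4me3 formed a narrow summit around the start and H3K27me3 a broad cover over it. H3K4me3 lay over 84.0% of these start sites, 39.1% of positions 500 bp upstream and 41.7% of positions 1000 bp downstream, and over 4.24% and 9.66% of positions 2000 bp upstream and downstream. H3K27me3 lay over 88.7% of the start sites, and at 2000 bp still over 45.1% of upstream and 61.8% of downstream positions. The start base was under both marks in 1948 of 2619 windows (74.4%), under H3K27me3 alone in 375, under H3K4me3 alone in 251 and under neither in 45. In H3K4me3 only windows the start base was under the mark in 92.5%, and in H3K27me3 only windows in 86.8%. The window lay wholly under H3K27me3 in 57.0% of windows with both marks and in 44.2% of H3K27me3 only windows, whereas it lay wholly under H3K4me3 in 6.34% and in 9.15% of H3K4me3 only windows.

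**Figure D1:**
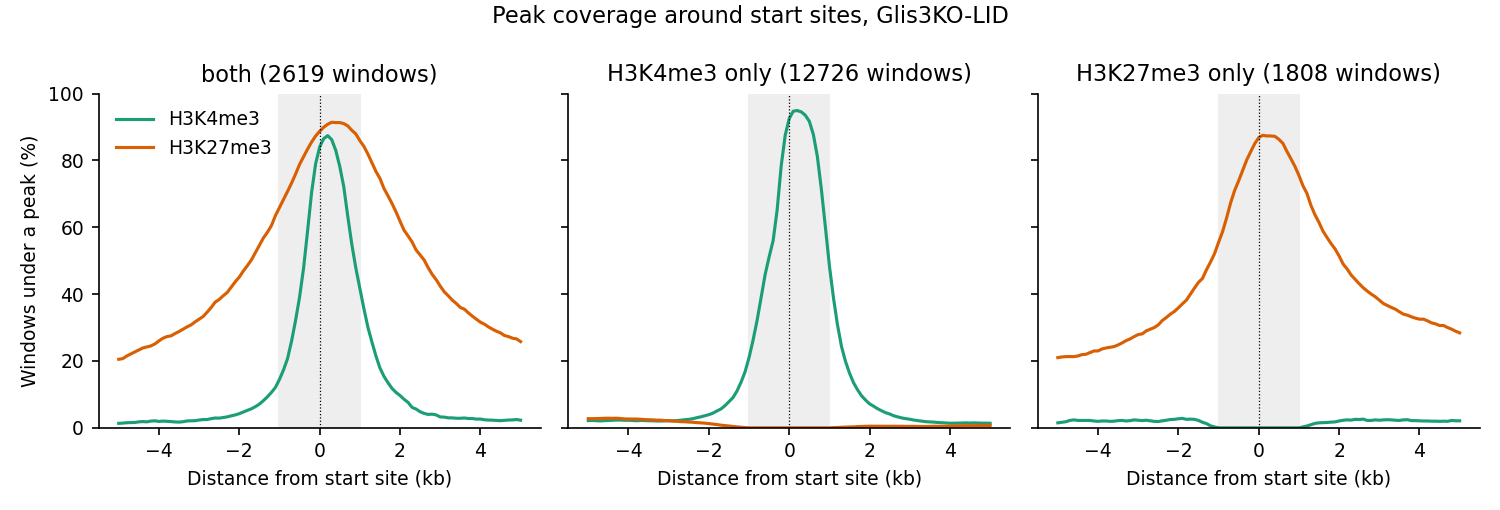
The percentage of start windows under a peak of each mark is plotted against the distance from the start site in kb (negative values are upstream along transcription) for windows with both marks, H3K4me3 only and H3K27me3 only in Glis3KO-LID. The grey band is the window that set the class, the green line is H3K4me3 and the orange line H3K27me3, which at 2000 bp downstream still covers 61.8% of the windows with both marks, against 9.66% for H3K4me3.

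Where both marks touched a window, they nearly always shared bases, which wide peaks and a short window favour. In the 57.0% of these windows that lay wholly under H3K27me3, a shared base was given in advance. Peaks of both marks shared at least 1 base inside the window in 2533 of 2619 windows (96.7%, 96.0 to 97.3%), with a median of 1040 shared bases (quartiles 748 and 1356). Every H3K4me3 peak of the window lay wholly inside H3K27me3 in 1987 windows (75.9%, 74.2 to 77.5%), the reverse held in 109 (4.16%), and the peaks overlapped in part in 437 (16.7%). Side by side placement with a gap between the peaks was found in 86 windows of 84 genes (3.28%, 2.67 to 4.04%). The side by side share was 2.53% in WT-LID, 2.97% in Glis3KO-ND and 3.46% in WT-ND, with intervals that overlap that of Glis3KO-LID. H3K4me3 lay wholly inside H3K27me3 more often in Glis3KO-LID than in the other groups, where the shares were 54.6% in WT-LID, 66.4% in Glis3KO-ND and 54.4% in WT-ND. With the widest H3K27me3 peaks alone it was 93.0% of 1237 windows in Glis3KO-LID, as follows from keeping wide peaks.

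**Figure D2:**
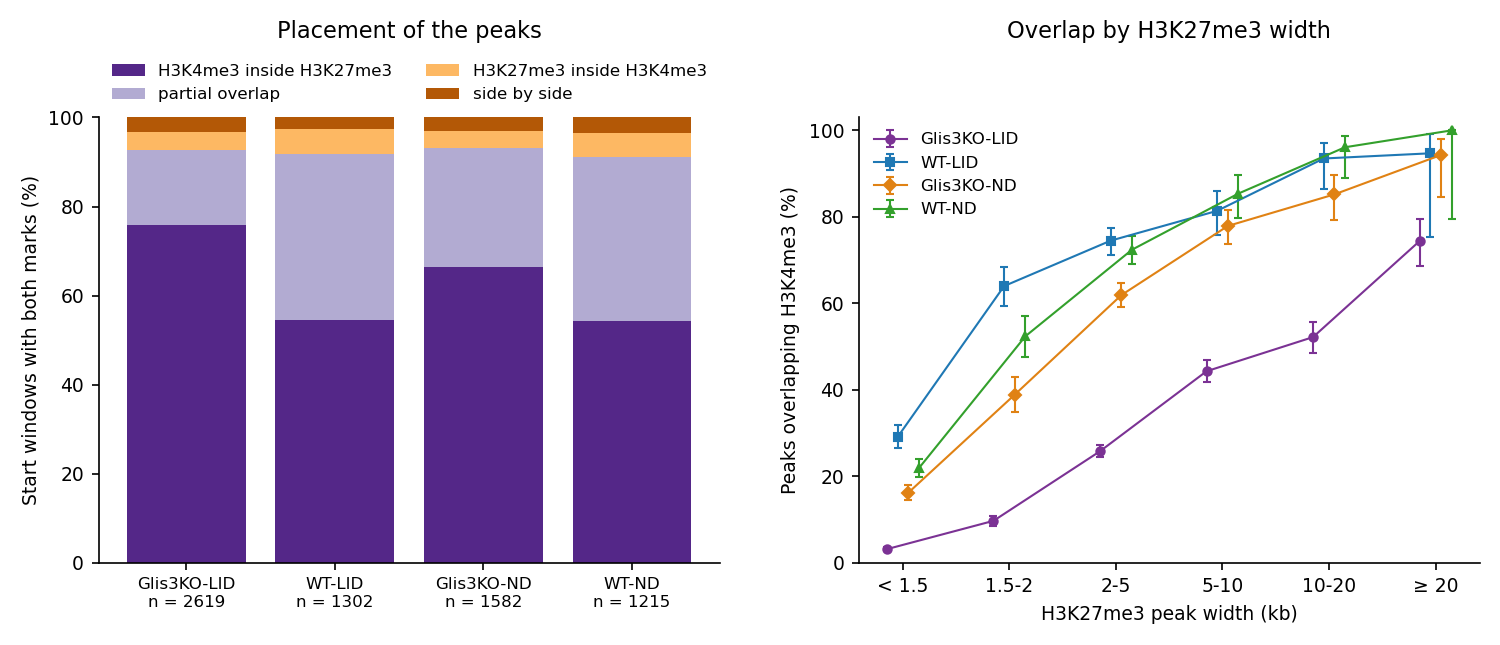
The left plot stacks the percentage of start windows with both marks by how the peaks were placed in the 4 groups, with the number of windows under each bar. The right plot gives the percentage of H3K27me3 peaks that overlap an H3K4me3 peak by width class in kb, with 95% Wilson intervals, and Glis3KO-LID lies below the other groups in each class, from 3.17% of peaks below 1500 bp to 74.4% of those of 20 kb or more.

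Side by side windows had short gaps, and in most of them H3K27me3 lay upstream. The gap had a median of 320.5 bp and ran from 5 to 1076 bp. H3K27me3 lay upstream of H3K4me3 in 61 of 86 windows (70.9%) and downstream in 25, and the start base was under H3K4me3 in 71 (82.6%) and under H3K27me3 in 5. Among genes whose peaks shared no base at any of their starts, the shortest gaps were at Il6ra, the interleukin 6 receptor gene (5 bp), Efhd2 (15 bp), the phosphatase gene Ppm1j (23 bp), Ass1, which encodes a urea cycle enzyme (34 bp), and Icosl, the gene of a T cell costimulatory ligand (61 bp). At Icosl the H3K4me3 peak of 1284 bp was flanked by H3K27me3 on both sides, with 1 and 192 bp of those peaks in the window. The longest gaps among these genes were at Nr2f2, a nuclear receptor gene (1003 bp), Mst1, the gene of macrophage stimulating protein (966 bp), the kinesin gene Kif19a (884 bp), Shmt2, a mitochondrial enzyme of serine and glycine metabolism (833 bp), and Syngr4 (830 bp). Of these 10 genes, 8 carried H3K4me3 only in all 3 other groups, and the exceptions were Il6ra, with both marks in Glis3KO-ND, and Kif19a, which had H3K4me3 only in Glis3KO-ND, H3K27me3 only in WT-ND and neither mark in WT-LID.

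H3K4me3 peaks were narrower, and H3K27me3 peaks wider, where both marks touched the window. The widest H3K4me3 peak of a window had a median of 1303 bp with both marks (quartiles 901.5 and 1839) and 1583 bp with H3K4me3 only (1177 and 2088). The widest H3K27me3 peak had a median of 4522 bp with both marks (2460 and 8610) and 3464 bp with H3K27me3 only (1792 and 7748). By placement, H3K27me3 had a median width of 5680 bp where it held the H3K4me3 peaks, 2060 bp in partial overlap, 1788 bp side by side and 1001 bp, the smallest width in the list, where it lay inside H3K4me3.

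Counted by peak over the whole genome, a smaller part of H3K27me3 overlapped H3K4me3 than at start sites. An H3K27me3 peak overlapped 3266 of 15692 H3K4me3 peaks (20.8%, 20.2 to 21.5%), and another 222 (1.41%) lay within 1 kb of one. An H3K4me3 peak overlapped 2846 of 18040 H3K27me3 peaks (15.8%, 15.3 to 16.3%), against 55.0% in WT-LID, 42.4% in Glis3KO-ND and 45.2% in WT-ND. Most H3K27me3 peaks (14434, 80.0%) touched no protein-coding start window, and 4.40% of these overlapped H3K4me3, compared with 61.3% of the 3606 at start windows. In WT-LID 48.5% of H3K27me3 peaks touched no start window. The shared bases added up to 3.8 Mb, or 16.8% of the H3K4me3 bases and 6.89% of the H3K27me3 bases of Glis3KO-LID.

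The share of H3K27me3 peaks with H3K4me3 rose with their width. It was 3.17% of 8801 peaks below 1500 bp, 9.71% from 1500 to 2000 bp, 25.8% from 2 to 5 kb, 44.3% from 5 to 10 kb, 52.2% from 10 to 20 kb and 74.4% of 250 peaks of 20 kb or more (68.6 to 79.4%). A wider peak has more room for an overlap, and the same order was seen in the other groups at higher levels, with 29.1% below 1500 bp and 94.7% from 20 kb in WT-LID. For H3K4me3 the order ran the other way at first, with 29.3% of 2843 peaks below 750 bp overlapping H3K27me3, 19.2% of those from 1000 to 1500 bp, 14.5% of those from 2000 to 3000 bp and 131 of the 690 of 3000 bp or more. Of the 2846 H3K27me3 peaks with an overlap, 2522 (88.6%) lay over 1 H3K4me3 peak, 252 over 2, 57 over 3 and 15 over 4 or more. The median part of such an H3K27me3 peak under H3K4me3 was 25.6%.

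Among the 10 widest H3K27me3 domains were those of 3 Hox clusters, and 7 of the 10 held H3K4me3 peaks over a small part of their length. The widest, of 108006 bp, covered the start of Pax7, the TF of muscle stem cells, and held no H3K4me3 peak. The HoxB domain of 88072 bp held 6 H3K4me3 peaks over 8.78% of its length, the HoxD domain of 85629 bp held 9 over 9.48%, and the HoxC domain of 77221 bp held 3 over 2.97%. Hox genes set position along the body axis. Both marks were at 4 of the 7 genes starting in the HoxB domain, at 4 of 7 in HoxD and at 2 of 6 in HoxC, and each of the others carried H3K27me3 only. The next domains in this order, named after their values were seen, were at Cpz (74390 bp, 0 H3K4me3 peaks), Pax2 (70452 bp, 4 peaks), a 65036 bp stretch with 1 peak and no protein-coding start, Hmx1 (62490 bp, 2 peaks), Vax2 together with Cd207 and Clec4f (62182 bp, 0 peaks) and Gbx2 (61292 bp, 5 peaks).

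The 10 genes with the most bases under both marks included several TF genes and 3 of the protocadherin family of adhesion proteins. Sall1, with 7090 shared bases, had an H3K4me3 peak of 7116 bp and an H3K27me3 peak of 7093 bp that began and ended almost together. It was followed by the ligand gene Fgf9 (6969 shared bases), Bcl11a, a repressor of fetal globin genes (6490), Pcdh7 (5682), Dusp4, a phosphatase of MAP kinases (5638), Pcdh10 (5601), the immediate early TF gene Egr3 (5453), Pcdh17 (4929), Tchh, which encodes trichohyalin of the hair follicle (4788), and Tbx1, a TF of pharyngeal development (4731). The window was wholly under both marks at the first 8 genes. At Tchh the overlap lay downstream and only 6 shared bases reached into the window. At Tbx1 an H3K27me3 peak of 21471 bp covered 2 H3K4me3 peaks of 2496 and 2235 bp. Of these 10 genes, Bcl11a, Pcdh10 and Egr3 carried both marks in all 4 groups, and Sall1 carried H3K4me3 only in the 3 other groups.

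The 10 H3K27me3 only genes under the widest peaks were all homeobox genes, Pax7 included, and several shared 1 peak. They were Pax7, then Hoxb3, Hoxb7 and Hoxb8 under the HoxB peak, Hoxd10, Hoxd12 and Hoxd4 under the HoxD peak, and Hoxc10, Hoxc5 and Hoxc6 under the HoxC peak, each with the whole window under H3K27me3. Hoxb8, Hoxc10, Hoxc5 and Hoxc6 were H3K27me3 only in all 4 groups. Hoxb3 carried H3K4me3 only in WT-LID and WT-ND and neither mark in Glis3KO-ND, and Hoxb7 carried both marks in WT-LID and WT-ND. Among H3K4me3 only genes the widest H3K4me3 peak was at Tnrc18 (10796 bp). Next came Fosl2, a subunit of the TF AP-1 (7221 bp), the angiogenic growth factor gene Vegfa (7210 bp), Bahcc1 (7206 bp), the TF gene Tbx3 (6804 bp), Brd2, a bromodomain protein that binds acetylated histones, and H2-DMa, which helps load peptides on MHC class II, under 1 peak (6767 bp), Trim8 (6605 bp), and the TF genes Nfib and Tgif1 (6572 bp each). All 10 of these genes were H3K4me3 only in the other 3 groups as well.

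Of the 11 genes for TH synthesis, 5 carried both marks in Glis3KO-LID, 5 carried H3K4me3 only and 1 carried neither, compared with 10.5, 49.4 and 33.2% of all genes. The 5 with both were Slc5a5, which takes iodide into the follicular cell, Slc26a4, which passes it to the lumen, the hydrogen peroxide generating oxidase Duox2 and the maturation factors Duoxa1 and Duoxa2. At Slc5a5, whose upstream sequence with 23 CG is printed above, a 501 bp H3K4me3 peak from +81 to +581 lay inside a 2344 bp H3K27me3 peak from -801 to +1542 relative to the start. At Slc26a4, 994 bp of the window lay under H3K4me3, all of them also under H3K27me3, which covered 1656 bp. Duox2 and Duoxa2 start back to back and shared an H3K4me3 peak of 2273 bp and an H3K27me3 peak of 4877 bp, with 1886 and 1697 shared bases in their windows. Duoxa1 had 1347 shared bases, and Duox1, its neighbour, had neither mark in its own window.

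The TH synthesis genes with H3K4me3 only included Tg, which encodes the prohormone thyroglobulin, the TSH receptor gene Tshr and Iyd, which recycles iodide. H3K4me3 covered 1091 bp of the Tg window as part of a peak of 5233 bp. It covered 1194 bp of the window at Tshr and 1213 bp at Iyd. No H3K27me3 peak lay within 6 kb of any of these 3 starts.

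**Figure D3:**
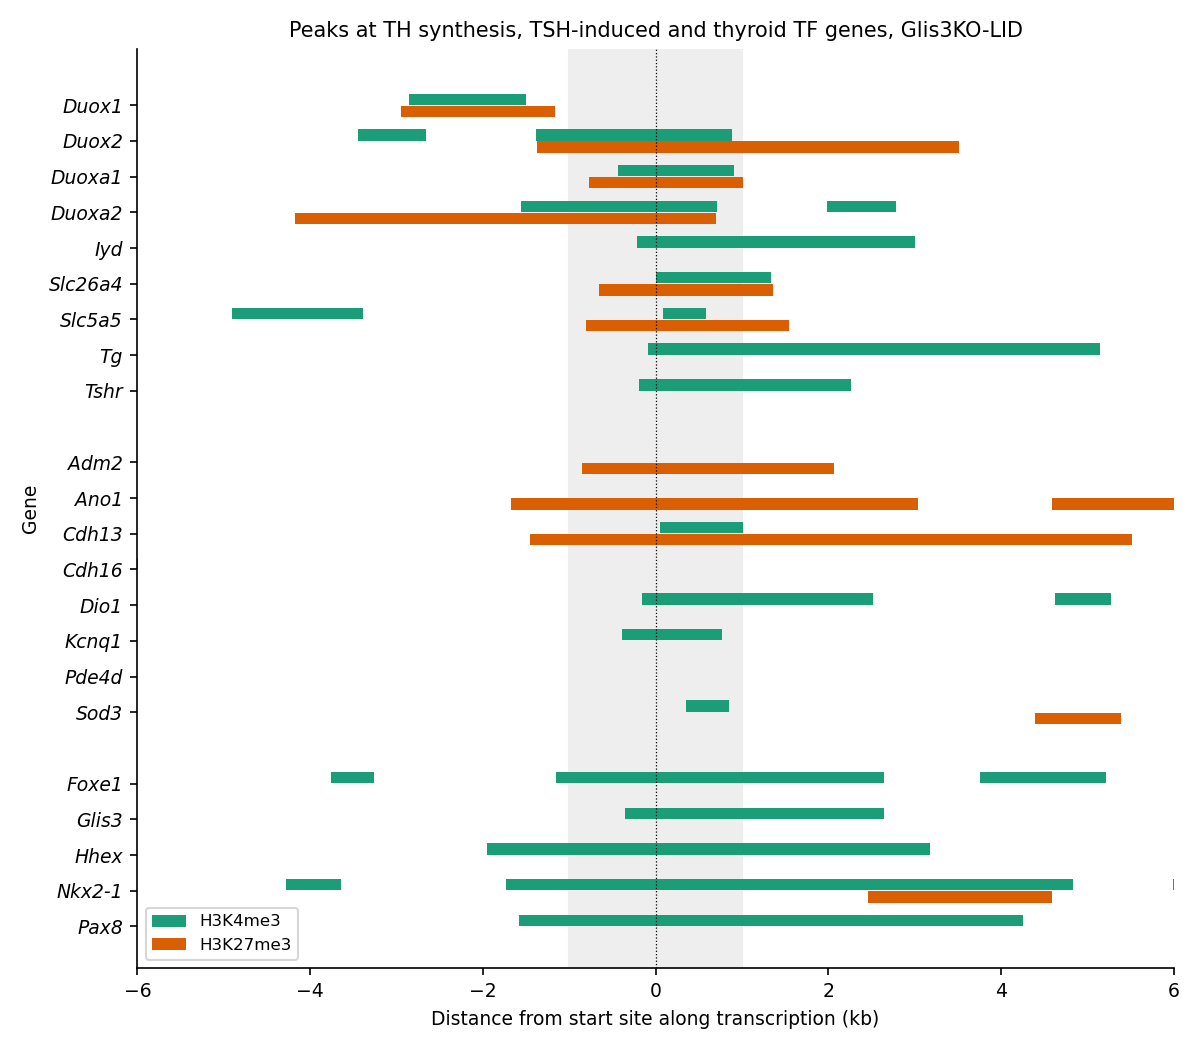
Peaks of both marks in Glis3KO-LID are drawn to scale against the distance from the start site in kb along transcription for 9 of the TH synthesis genes (top), 8 TSH-induced genes (middle) and 5 thyroid TF genes (bottom), with the 1 kb window in grey. H3K27me3 lies over the starts of Duox2, Duoxa1, Duoxa2, Slc26a4, Slc5a5, Adm2, Ano1 and Cdh13, and over none of the TF starts.

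In the other groups, H3K27me3 touched the windows of the 5 TH synthesis genes with both marks in few cases. In WT-ND it covered 1001 bp of the Duox2 and 676 bp of the Duoxa2 window, and in WT-LID and Glis3KO-ND none of the 5. At Slc5a5 H3K4me3 covered 501 bp of the window in Glis3KO-LID, which is the smallest width of an H3K4me3 peak in the list. It covered 1295, 1257 and 1230 bp in WT-LID, Glis3KO-ND and WT-ND. At Slc26a4 it covered 994 bp in Glis3KO-LID and 1264, 1123 and 969 bp in the others. At Tg the order differed, with 1091 bp in Glis3KO-LID, 1056 bp in Glis3KO-ND and no H3K4me3 peak in the window in WT-LID or WT-ND. By width, the H3K27me3 peaks at these genes stood in the upper and middle part of the list. The Duox2 and Duoxa2 peak was wider than 85.5% of the 18040 peaks, that of Slc5a5 wider than 68.5%, that of Slc26a4 than 63.4% and that of Duoxa1 than 58.4%. With the 2631 widest peaks only Duox2 and Duoxa2, whose peak of 4877 bp is close to the narrowest kept (4869 bp), still carried both marks, and the other 3 were H3K4me3 only.

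Among 8 TSH-induced genes, 1 carried both marks, 3 H3K4me3 only, 2 H3K27me3 only and 2 neither. Over all genes the shares were 10.5, 49.4, 6.77 and 33.2%, and 8 genes are too few to be set apart from them. Cdh13, encoding a cadherin, had 953 shared bases and both marks in Glis3KO-ND and WT-ND as well. The H3K27me3 only genes were Adm2, of the calcitonin peptide family, and Ano1, a calcium-activated chloride channel. H3K27me3 covered 1849 bp of the Adm2 window in Glis3KO-LID and none in the other groups. There H3K4me3 covered 766 bp (WT-LID), 501 bp (Glis3KO-ND, the smallest peak width in its list) and 929 bp (WT-ND). At Ano1 H3K27me3 covered the whole window in Glis3KO-LID, H3K4me3 alone 626 bp in WT-LID, and both marks were present in Glis3KO-ND and WT-ND. Both genes carried neither mark once the 2631 widest H3K27me3 peaks alone were kept. The deiodinase gene Dio1, the potassium channel gene Kcnq1 and Sod3, an extracellular superoxide dismutase, carried H3K4me3 only, and Cdh16 and Pde4d neither.

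All 5 thyroid TF genes carried H3K4me3 only in Glis3KO-LID, beside 49.4% of all genes. H3K4me3 covered the whole window at Pax8, Nkx2-1, Hhex and Foxe1, in peaks of 5834, 6565, 5133 and 3791 bp, and 1356 bp at Glis3. At Nkx2-1 an H3K27me3 peak lay from +2455 to +4589, inside the H3K4me3 peak but outside the window. Foxe1 carried both marks in Glis3KO-ND, with 1344 bp of H3K27me3. Most Pax and Nkx paralogues of these TFs fell into other classes. Of 9 Pax genes, 5 carried both marks (Pax1, Pax2, Pax3 and Pax6 among them), 3 H3K27me3 only (Pax4, Pax5 and Pax7) and Pax8 alone H3K4me3 only. Of 14 Nkx genes, 9 carried both, 4 H3K27me3 only and Nkx2-1 alone H3K4me3 only.

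Developmental TF genes were found in the classes with H3K27me3 more often than genes at large. Of 246 genes in 14 developmental TF lists, 132 (53.7%) carried both marks and 63 (25.6%) H3K27me3 only, beside 10.5 and 6.77% of all genes. The count with both was 110 in WT-LID, 126 in Glis3KO-ND and 97 in WT-ND, whereas over all genes it was 1086, 1354 and 1035 against 2208 in Glis3KO-LID. With the widest H3K27me3 peaks it was 118 of 246, and 58 carried H3K27me3 only. Both marks were found at 10 of 12 LIM homeobox genes (Isl1, Isl2, Lhx1 and Lhx2 among them), 14 of 20 Sox genes (Sox1, Sox10, Sox11 and Sox14 among them), 5 of 6 Irx genes, 5 of 6 Gata genes and 8 of 11 Gli, Glis and Zic genes. Glis1 was among the last, whereas Glis2 and Glis3 carried H3K4me3 only. Families split evenly between both marks and H3K27me3 only were the Hox genes, with 19 and 19 of 39 and Hoxb2 alone with H3K4me3 only, and the neural and mesodermal bHLH genes, with 13 and 13 of 32. Forkhead genes were more mixed, with 18 of 44 carrying both, 12 H3K4me3 only (Foxe1, Foxj2, Foxj3 and Foxk1 among them), 9 H3K27me3 only and 5 neither.

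Genes of secreted signals fell into the same classes. Over all genes, 10.5% carried both marks, 49.4% H3K4me3 only and 6.77% H3K27me3 only. Of 19 Wnt ligand genes, 12 carried both marks, 7 H3K27me3 only and none H3K4me3 only. Of 22 Fgf ligand genes, 11 carried both (Fgf11, Fgf12, Fgf13 and Fgf15 among them) and 8 H3K27me3 only, and Fgf1 and Fgf2 carried H3K4me3 only. Of 20 Bmp and Gdf genes, 9 carried both and 5 H3K27me3 only. In the hedgehog pathway, the ligand genes Dhh and Ihh carried both marks and Shh H3K27me3 only, the receptor gene Ptch1 carried both, and the signal transducers Smo and Sufu carried H3K4me3 only.

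**Figure D4:**
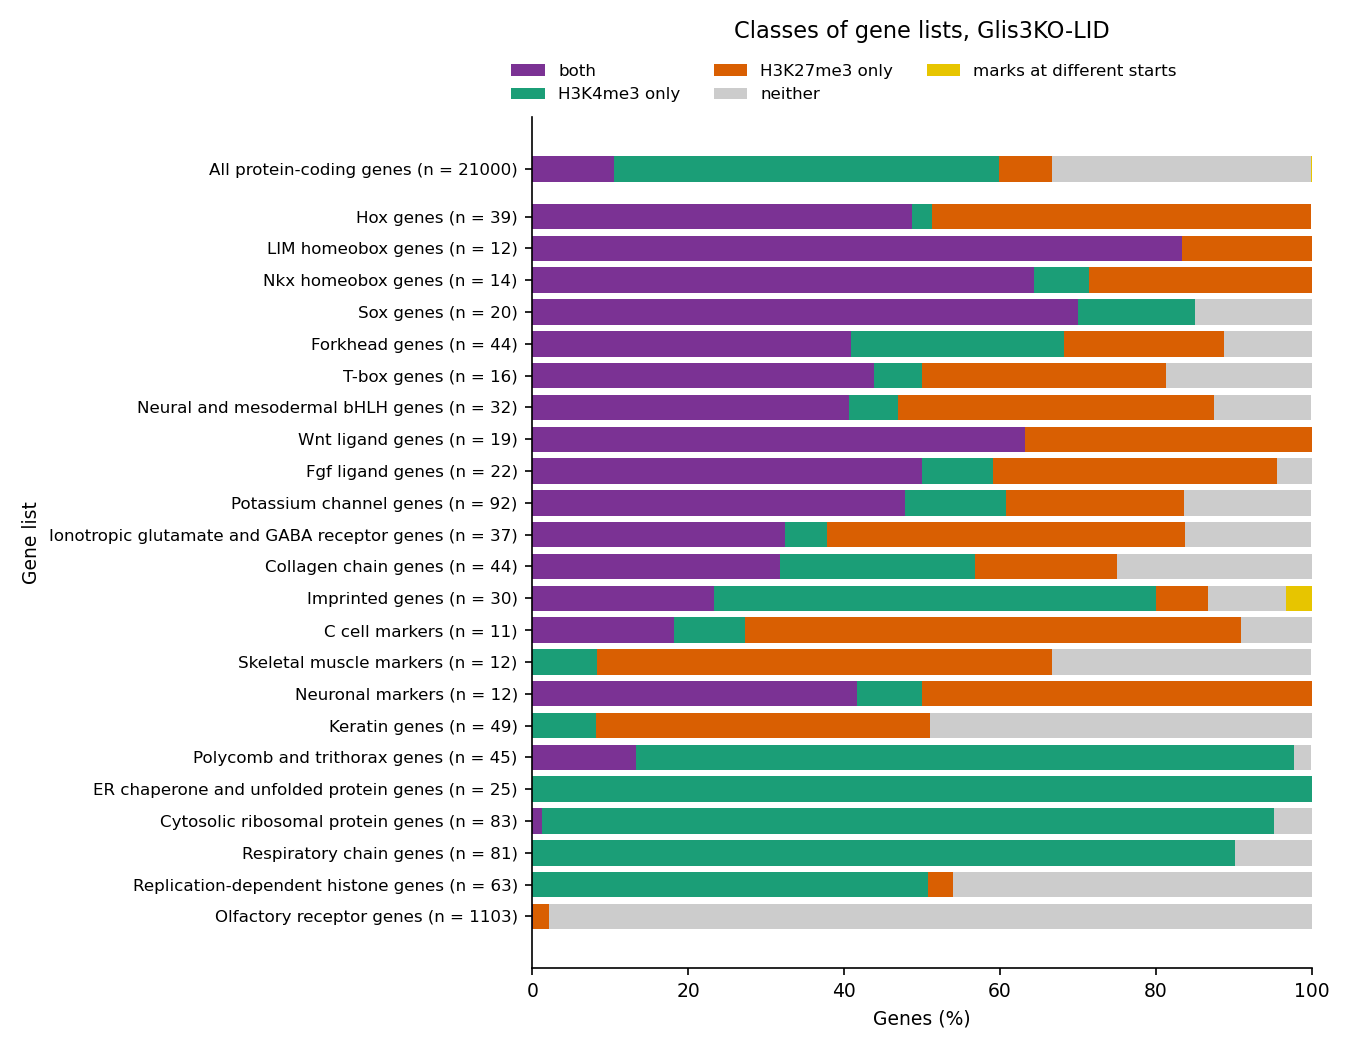
Each bar gives the percentage of the genes of a list (number in parentheses) that fell into each class in Glis3KO-LID, with all protein-coding genes as the top bar. Developmental and channel families show large shares with both marks or H3K27me3 only, such as 44 of 92 potassium channel genes with both, while the ribosomal, respiratory chain and chaperone lists are nearly all H3K4me3 only.

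Potassium channel and ionotropic receptor genes had larger shares in both classes with H3K27me3 than the 10.5% (both) and 6.77% (H3K27me3 only) of all genes. Of 92 potassium channel genes, 44 (47.8%) carried both marks and 21 H3K27me3 only (26 and 13 with the widest peaks), beside 22, 38 and 31 with both in WT-LID, Glis3KO-ND and WT-ND. Of 37 ionotropic glutamate and GABA receptor genes, 12 carried both and 17 H3K27me3 only. No keratin or keratin-associated protein gene carried both marks. Of 49 keratin genes, 21 carried H3K27me3 only (Krt1, Krt12, Krt14 and Krt15 among them) and 4 H3K4me3 only, which were Krt7, Krt8, Krt18 and Krt19, the keratins of simple epithelia. Of 56 keratin-associated protein genes 11 carried H3K27me3 only and 45 neither. In WT-LID, Glis3KO-ND and WT-ND, H3K27me3 only was at 1, 3 and 2 keratin genes. In the same order it was at 0, 1 and 1 keratin-associated protein genes and at 5, 6 and 4 of the ionotropic receptor genes. These 3 lists were not recounted with the widest peaks. Of 1103 olfactory receptor genes, 1079 carried neither mark, 23 H3K27me3 only and 1 both. Of 350 vomeronasal receptor genes 349 carried neither, beside 33.2% of all genes.

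Housekeeping genes were H3K4me3 only almost throughout. Of 306 genes in 5 lists, 285 (93.1%) carried H3K4me3 only, 17 neither, 4 both and none H3K27me3 only. The shares of all genes were 49.4, 33.2, 10.5 and 6.77%. The 4 were Rpl38, a cytosolic ribosomal protein gene, and the mitochondrial ribosomal protein genes Mrpl23, Mrps18a and Mrps23, and none of the 306 carried both marks in the other groups. All 25 endoplasmic reticulum chaperone and unfolded protein genes (Atf4, Atf6, Calr and Canx among them) carried H3K4me3 only. The genes of the machinery that writes and reads these marks were mostly H3K4me3 only too, with 38 of 45 Polycomb and trithorax genes. Of this list, 6 carried both, among them the PRC1 subunit genes Cbx2 and Cbx8, and Cbx7 alone carried neither. Of 7 inhibitors of cyclin-dependent kinases, Cdkn1c and Cdkn2a carried both and the others H3K4me3 only. The Zfp zinc finger genes differed from the developmental TFs, with 291 of 365 H3K4me3 only and 14 both.

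The remaining fixed families were divided more widely. All genes had shares of 10.5% with both marks, 49.4% H3K4me3 only, 6.77% H3K27me3 only and 33.2% neither. The H3K4me3 only shares of imprinted (56.7%) and replication-dependent histone genes (50.8%) lay near that over all genes. Of 30 imprinted genes, 17 carried H3K4me3 only, 7 both (Ascl2, Cdkn1c, Dio3 and Dlk1 among them), 2 H3K27me3 only and 3 neither, and Gnas had the marks at different starts. Of 44 collagen chain genes, 14 carried both (Col11a1, Col11a2, Col12a1 and Col13a1 among them), 11 H3K4me3 only, 8 H3K27me3 only and 11 neither. Of 93 cytochrome P450 genes 62 carried neither, and of 63 replication-dependent histone genes 32 carried H3K4me3 only and 29 neither.

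Cell type markers were spread over the classes. The lists are short, and the shares over all genes were 10.5% both, 49.4% H3K4me3 only, 6.77% H3K27me3 only and 33.2% neither. Of 12 markers of epithelia, to which the follicular cell belongs, 9 carried H3K4me3 only and 3 both (Epcam, Esrp1 and Ocln). Of 11 C cell markers, 7 carried H3K27me3 only, among them the calcitonin gene Calca and the granin genes Chga and Chgb, 2 both (Gfra1 among them) and Ret H3K4me3 only. Of 12 skeletal muscle markers 7 carried H3K27me3 only (Acta1, Ckm, Des and Myh2 among them), and of 12 neuronal markers 6 did and 5 carried both. Of 12 endothelial markers 5 carried both (Cdh5, Cldn5, Erg and Flt1 among them) and 4 H3K4me3 only. Of 12 fibroblast markers, 3 carried both, 3 H3K27me3 only (Col1a1, Col1a2 and Pdgfrb) and 6 neither, while 11 of 13 immune markers carried neither. H3K27me3 only was at 0, 4 and 3 C cell markers in WT-LID, Glis3KO-ND and WT-ND. In the same order it was at 3, 2 and 2 skeletal muscle and 5, 4 and 5 neuronal markers. Both marks were at 2, 2 and 1 endothelial markers, and all 12 epithelial markers were H3K4me3 only in each of these groups. The marker lists were not recounted with the widest peaks, and the share of each cell type in the glands was not measured.

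The study listed genes near peaks of GLIS3, NKX2.1 and PAX8 whose RNA was lower or higher in knockout than in wild-type thyroids on the low iodide diet. The NKX2.1 and PAX8 peaks are of this series, so the lists' classes are not independent evidence. Of 330 matched lower genes, 58 (17.6%) carried both marks, 157 H3K4me3 only, 25 H3K27me3 only and 89 neither in Glis3KO-LID. Of 159 matched higher genes, 12 (7.55%) carried both, 108 H3K4me3 only, 4 H3K27me3 only and 35 neither. Over all genes the shares were 10.5% both, 49.4% H3K4me3 only, 6.77% H3K27me3 only and 33.2% neither. All genes are not a like background, since the lists hold only genes near peaks of the 3 TFs. Of 2896 start windows touched by both an NKX2.1 and a PAX8 peak, 119 carried both marks, beside 2619 of all 26242 windows. In WT-LID 15 of the lower and 3 of the higher genes carried both, beside 5.17% of all genes. The counts were 24 and 5 in Glis3KO-ND, beside 6.45%, and 17 and 4 in WT-ND, beside 4.93%. Over all genes, 2208 carried both in Glis3KO-LID and 1086 in WT-LID. From normalized read counts around the start, the study reported no significant difference in either mark at GLIS3-bound genes with changed RNA. The peak lists used here hold no such signal.

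Set against the other groups gene by gene, the H3K4me3 only class of Glis3KO-LID was shared the most, the class with both marks less and the H3K27me3 only class the least. This order largely follows the class sizes there, which bound how much can be shared. In WT-LID, 57.8% of all genes were H3K4me3 only, 5.17% had both marks and 1.29% (270 genes) were H3K27me3 only. Of the 2208 genes with both marks, 883 (40.0%) had both in WT-LID, 1084 (49.1%) in Glis3KO-ND and 818 (37.0%) in WT-ND. Most of the rest had H3K4me3 only there, with 1169 (52.9%) in WT-LID and 919 (41.6%) in Glis3KO-ND. Of 10366 H3K4me3 only genes, 98.5% were H3K4me3 only in WT-LID too. Of 1422 H3K27me3 only genes, 837 (58.9%) had neither mark in WT-LID, 205 H3K27me3 only, 191 both and 186 H3K4me3 only. With the widest H3K27me3 peaks, 1024 genes carried both marks in Glis3KO-LID, and 62.4% of these had both in WT-LID, 72.1% in Glis3KO-ND and 57.5% in WT-ND.

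Genes with both marks in all 4 groups differed from those with both in Glis3KO-LID alone in the width of H3K27me3 and hardly in that of H3K4me3. The set of all 4 groups asks for an H3K27me3 peak also in lists of 2631 to 4116 peaks, against 18040 in Glis3KO-LID. Such sorting may itself favour wide H3K27me3 peaks, so the contrasts in width and placement are not independent of it. Both marks were in all 4 groups at 483 genes, in Glis3KO-LID and in 1 or 2 of the others at 900 and in Glis3KO-LID alone at 825, of which 677 had H3K4me3 only in all 3 others. Another 411 had both marks in another group but not in Glis3KO-LID. The H3K27me3 peak had a median width of 8917 bp in the 595 windows of the first set and 2195 bp in the 939 windows of the set found in Glis3KO-LID alone, whereas H3K4me3 had medians of 1327 and 1347 bp. H3K4me3 lay wholly inside H3K27me3 in 97.8% of the windows of the first set and in 46.5% of those of the other, and side by side placement was seen in 1 and 72 windows. The developmental TF lists made up 61 of the 483 genes (12.6%) and 13 of the 825 (1.58%), beside 246 of all 21000 genes, so the second share lay near that over all genes. Of 11 TH synthesis genes none was in the first set, and 3 were in the other (Slc5a5, Slc26a4 and Duoxa1). The first set held 483 of 21000 genes, so the absence of a list this short says little. With the widest peaks of Glis3KO-LID, 132 genes carried both marks in this group alone.

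CpG content, which played no part in the sorting, was close in the classes with H3K4me3 and lower without it. The median was 5.0 CpG per 100 bp of window with both marks (quartiles 3.75 and 6.40), 4.60 with H3K4me3 only (3.45 and 6.00), 2.15 with H3K27me3 only (1.45 and 3.35) and 0.95 with neither, and 3.25 over all windows. A ratio of observed to expected CpG of at least 0.6 was reached by 51.9% of windows with both, 59.3% with H3K4me3 only, 10.9% with H3K27me3 only and 2.08% with neither. Within the class with both marks, the windows shared by all 4 groups had a median of 5.95 CpG per 100 bp and those of Glis3KO-LID alone 4.45. H3K27me3 only windows with neither mark in the 3 other groups (645 windows) had a median of 1.5, and those with H3K4me3 in all 3 others (261 windows) 3.70. The printed promoters stood at 9.80 CpG per 100 bp of window (Sall1), 5.45 (Slc5a5), 5.10 (Slc26a4), 4.85 (Hoxd10), 2.0 (Pax8), 1.75 (Adm2) and 0.60 (Tg), so windows poor in CpG carried H3K4me3 at Tg and Pax8, and a CpG-rich one had H3K27me3 only at Hoxd10.

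**Figure D5:**
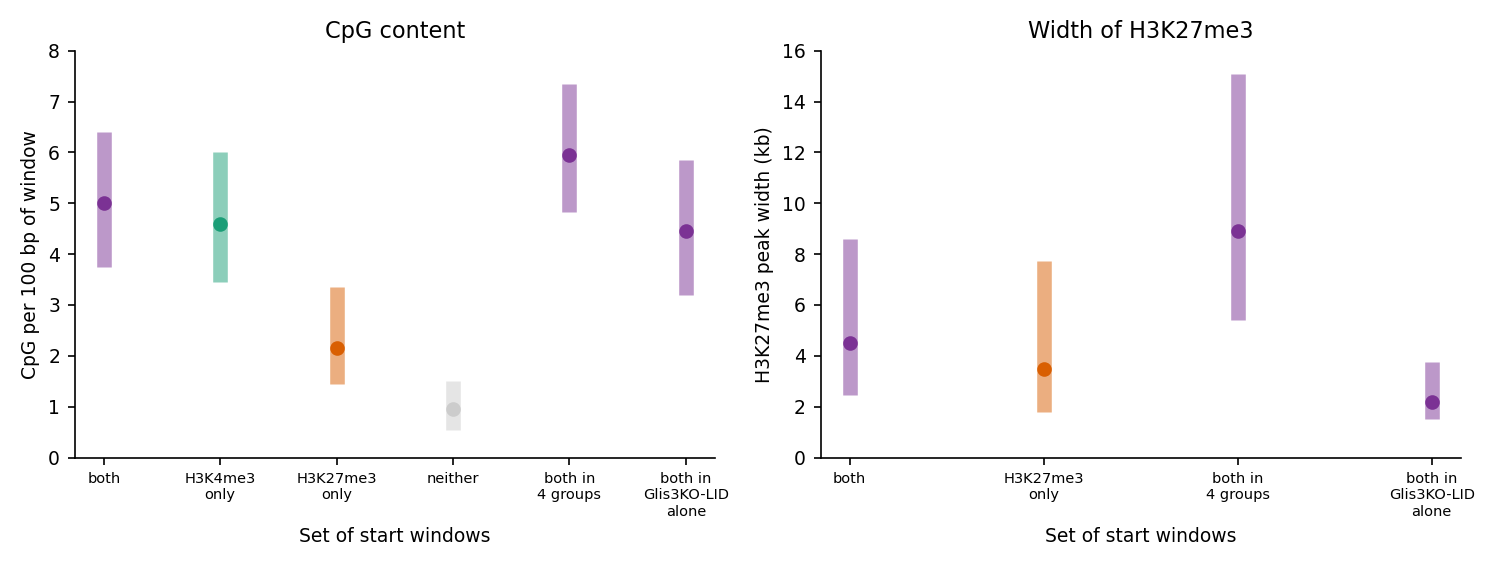
The left plot gives CpG per 100 bp of the start window by class and for windows with both marks in all 4 groups or in Glis3KO-LID alone, and the right plot the width in kb of the widest H3K27me3 peak in these sets. Points are medians and bars run between the quartiles, and the H3K27me3 medians are 8917 bp for both marks in 4 groups and 2195 bp for Glis3KO-LID alone.

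Peaks of the thyroid TFs NKX2.1 and PAX8, mapped in thyroids of other mice on the low iodide diet, were frequent in H3K4me3 only windows and scarce where H3K27me3 lay alone. An NKX2.1 peak touched 33.2% of H3K4me3 only windows (32.4 to 34.1%), 8.74% of those with both marks (7.72 to 9.89%), 2.71% of H3K27me3 only windows and 8.13% of those with neither, and 5248 of all 26242 windows. For PAX8 the shares were 46.7% (45.8 to 47.5%), 20.4% (18.9 to 22.0%), 5.59 and 8.17%, and 27.9% of all windows. Among windows with both marks, those of all 4 groups held NKX2.1 in 5.04% and PAX8 in 11.1%, and those of Glis3KO-LID alone in 12.8 and 28.3%. The methods describe the mice of the TF libraries as Glis3-EGFP adults fed the low iodide diet, older than those of the histone libraries, so these values set libraries of different animals side by side.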

How the data were processed

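Peak lists of H3K4me3 and H3K27me3 ChIP-seq of mouse thyroid were analysed as deposited by the authors, and the values used are the start and end of each peak on mm10. Per the submitters' processing notes, Cutadapt 1.12, Bowtie 1.2, Picard 1.110, bedtools 2.24.0 and HOMER 4.10.3 were used, and each library has a peak list of its own. The lists give no score or read depth, and whether an input entered the histone calls is not stated in these sources. In Glis3KO-LID the narrowest H3K4me3 peak spans 501 bp and the smallest gap is 500 bp, whereas for H3K27me3 they are 1001 and 1499 bp, so finer interruptions of a mark cannot be seen and neighbouring H3K27me3 stretches are joined. The samples fall into 4 groups with 1 library for each mark, so no test was run, and precision is given as Wilson intervals at 95%, for counting only.

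Start sites came from curated RefSeq transcripts of protein-coding genes on GRCm38 (mm10), the build of the peaks. A mark was scored in a window when 1 bp of a peak lay in it. A gene counts as both when 1 window held both marks, and as H3K4me3 only or H3K27me3 only when no window held the other mark. Placement was read inside the window, with containment read from whole peaks. CpG was counted in the window, with a ratio of observed to expected CpG of 0.6 as the limit. Named genes were the 10 with the most shared bases, the 5 shortest and the 5 longest gaps of genes whose peaks shared no base at any start, the 10 under the widest peak of each single-mark class, all genes of the TH synthesis, TSH-induced and thyroid TF lists, and up to 4 per class, in alphabetical order, of other lists, and a few of these genes are not reported here. Members named beyond that rule, the single exceptions of a list included, were chosen after their values were seen. The 56 gene lists, of which 8 are the study's, and the classes were chosen with earlier results of these data known. Of the study's lists, 330 of 344 lower and 159 of 196 higher genes matched a gene with a start site. Scripts used Python 3.11.15, numpy 2.4.6, pandas 2.3.3, scipy 1.17.1 and matplotlib 3.10.9 and were tested on simulated data. Alternatives changed the window, the overlap asked for, the start sites and the peaks kept.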

Additional observations from a re-analysis of the deposited data

How the results depend on the processing

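No paired analysis was possible because each mark had 1 library per group, and for the same reason no replicate could be left out. Values below were chosen beforehand as alternatives except those of the widest peaks for gene lists, other groups, peaks, CpG and TF peaks, which were added after seeing the data. Of the recomputed values, 67 stayed within their interval or within 1.5 times the count and 49 did not. The share of H3K27me3 windows holding H3K4me3 became 57.5% with windows of 500 bp either side or with 500 bp asked inside the window, 61.1% with 2 kb, 56.6% with all annotated genes, 62.7% with H3K27me3 peaks of 2 kb or more and 41.2% with H3K4me3 peaks of 1 kb or more. The share of windows with both marks that share bases became 94.9% (133 short of it) when 200 bases were asked, 90.3% (253) when 500 were, 99.5% (13) with the 500 bp window, 90.2% (289) with 2 kb and 98.3% (37) with H3K27me3 peaks of 2 kb or more. With these peaks 17.4% of H3K4me3 and 35.0% of H3K27me3 peaks overlapped. CpG ratios of at least 0.6 were reached by 68.5, 78.8 and 19.4% of 500 bp windows (both, H3K4me3 only, H3K27me3 only) and by 60.4% of H3K4me3 only windows at the most upstream starts. In 2 kb windows the same classes held NKX2.1 in 14.2, 40.3 and 5.99% and PAX8 in 27.4, 52.4 and 8.44%.

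Keeping the 2631 widest H3K27me3 peaks left 1237 windows with both marks and 706 with H3K27me3 only, and 63.7% of H3K27me3 windows held H3K4me3. Bases were shared in 1219 (98.5%) and not in 18. Overlap was 10.8% of H3K4me3 and 49.1% of H3K27me3 peaks. The CpG limit was reached by 60.6, 57.8 and 18.4% of the 3 classes, NKX2.1 lay in 7.52 and 31.0% and PAX8 in 16.1 and 44.5% of windows with both and with H3K4me3 only. Both marks were at 1024 genes, 132 of them in Glis3KO-LID alone, at 2 TH synthesis genes, 1 housekeeping gene and 26 potassium channel genes, of which 13 more had H3K27me3 only. Width is no score, and why the Glis3KO-LID list is longer was not tested. The unknown read depth limits what an absent peak shows.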

Other observations

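Long noncoding RNA (lncRNA) genes carried both marks or H3K4me3 only less often than protein-coding genes in Glis3KO-LID (10.5 and 49.4% of the latter), and H3K27me3 only somewhat more often (6.77%). Of 3319 lncRNA genes, 221 (6.66%) had both marks in a start window, 783 (23.6%) H3K4me3 only, 267 (8.04%) H3K27me3 only and 2047 (61.7%) neither. Of the 2389 that start more than 2 kb from any protein-coding start, 59 (2.47%) had both marks, 186 (7.79%) H3K4me3 only and 197 (8.25%) H3K27me3 only. Away from coding starts H3K27me3 alone was thus about as frequent as H3K4me3 alone with the long H3K27me3 list of Glis3KO-LID. These genes were not counted apart in the other groups or with the widest peaks. Over all lncRNA genes, H3K27me3 only was found at 48 (1.45%) in WT-LID, 88 (2.65%) in Glis3KO-ND and 65 (1.96%) in WT-ND. H3K4me3 only was found at 28.9, 27.5 and 28.2% in the same order.

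H3K4me3 peaks away from coding starts overlapped H3K27me3 more often than those at them, and they were narrower. Their median width was 646 bp, against 1456 bp at coding start windows. Overlap was seen at 29.3% of H3K4me3 peaks below 750 bp and at 15.0% of those from 1500 to 2000 bp. Place and width were not separated. Of 12029 H3K4me3 peaks at a protein-coding start window, 18.2% (17.5 to 18.9%) overlapped an H3K27me3 peak, against 25.1% (20.6 to 30.2%) of 311 at a noncoding start only and 29.8% (28.3 to 31.4%) of 3352 at no annotated start.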
